A study of Homo sapiens with 6 samples.

Results

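BAIAP3 and 7 genes of vesicle priming (UNC13A, UNC13B, UNC13D, CADPS, CADPS2, RIMBP2 and RIMS2) were examined in EndoC-βH1 cells, named EndoCBH1 in the labels, a human pancreatic beta cell line. Members were taken by symbol, and 8 of 8 were found among the 16792 deposited genes. They were chosen by their role in secretion and with their siMNX1 and siNT values already known. The differences between the groups are therefore described for them and not tested. Where members are said to pass or miss a threshold, this describes them and is not a test. In the siMNX1 group (genotype label MNX1 knock down) the cells were transfected with siRNA against MNX1, a homeobox transcription factor gene. In the siNT group (genotype label WT) they were transfected with a non-targeting control siRNA. Each group had 3 libraries, made from 5 ng of total RNA each. The labels do not state dose, time, or whether the replicates were separate cultures. The spread that p-values rest on is therefore that of these libraries and may be technical.

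Insulin leaves the beta cell by fusion of dense-core vesicles with the plasma membrane. Before fusion a docked vesicle is primed. UNC13 proteins open syntaxin so that SNARE complexes can form, CADPS proteins bind phosphoinositides and prime dense-core vesicles, RIM proteins hold RAB3-bearing vesicles and recruit UNC13, and RIM-binding proteins tie RIM to voltage-gated calcium channels. BAIAP3 is related in sequence to UNC13D and is known for traffic of dense-core vesicle proteins from endosomes back to the Golgi, a step before docking.

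Values are the authors' normalized counts, which are not divided by gene length. Fold changes are differences of log2(value + 1) between siMNX1 and siNT, with the 95% interval from a limma fit over all genes, and a gene was called where its Benjamini-Hochberg adjusted p was under 0.05. Deposited totals ran from 18406479 to 18704645 per library, sums of normalized values that give no depth. Where single values are listed they stand in the order of replicates 1, 2 and 3. MNX1 RNA, the target, read 2039, 2033 and 1988 in siNT, against 1885, 1708 and 1751 in siMNX1. It was below without overlap but was not called (log2 fold change -0.18, limma, adjusted p = 0.116). PERCC1 (log2 fold change 4.24, limma, adjusted p = 2.47e-06) and SST, which encodes somatostatin (1.96, limma, adjusted p = 3.97e-06), were higher. Of 14 defining beta cell markers 14 were measured, among them INS (110539 ± 3758, SD, n = 3, in siNT) and PAX6 (15225 ± 822). Limma called 2 of these markers higher and 2 lower, where 1.99% of all genes were called higher and 1.33% lower. Named after their values were seen, the higher ones were MAFA and PCSK1 and the lower ones G6PC2 and IAPP, the last at 57.8 ± 16.1 in siNT and 15.3 ± 3.76 in siMNX1. Of 20 acinar, ductal, mesenchymal, endothelial and immune markers 5 were measured and 0 were called by limma (1 higher and 1 lower at an unadjusted p under 0.05).

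BAIAP3 was the member with the widest gap between the groups, 5.02-fold on the means of the normalized counts. It was at 165, 157 and 145 normalized counts in siNT, against 727, 799 and 819 in siMNX1. All 3 siMNX1 libraries lay far above all 3 siNT libraries, and within either group the highest library was at most 1.13 times the lowest. The log2 fold change was 2.32 (95% interval 2.11 to 2.53), the 12th highest of all 16792 genes. BAIAP3 spans 1333601 to 1349441 of chromosome 16 (GRCh38, plus strand), and its last 202 bases overlap the 3′ end of TSR3 on the other strand. TSR3, a ribosome maturation enzyme, had 1184 ± 52.5 in siNT and 1104 ± 145 in siMNX1. Strand handling is not given in the sources used here, so reads from those 202 bases cannot be assigned to either gene.

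**Figure D1:**
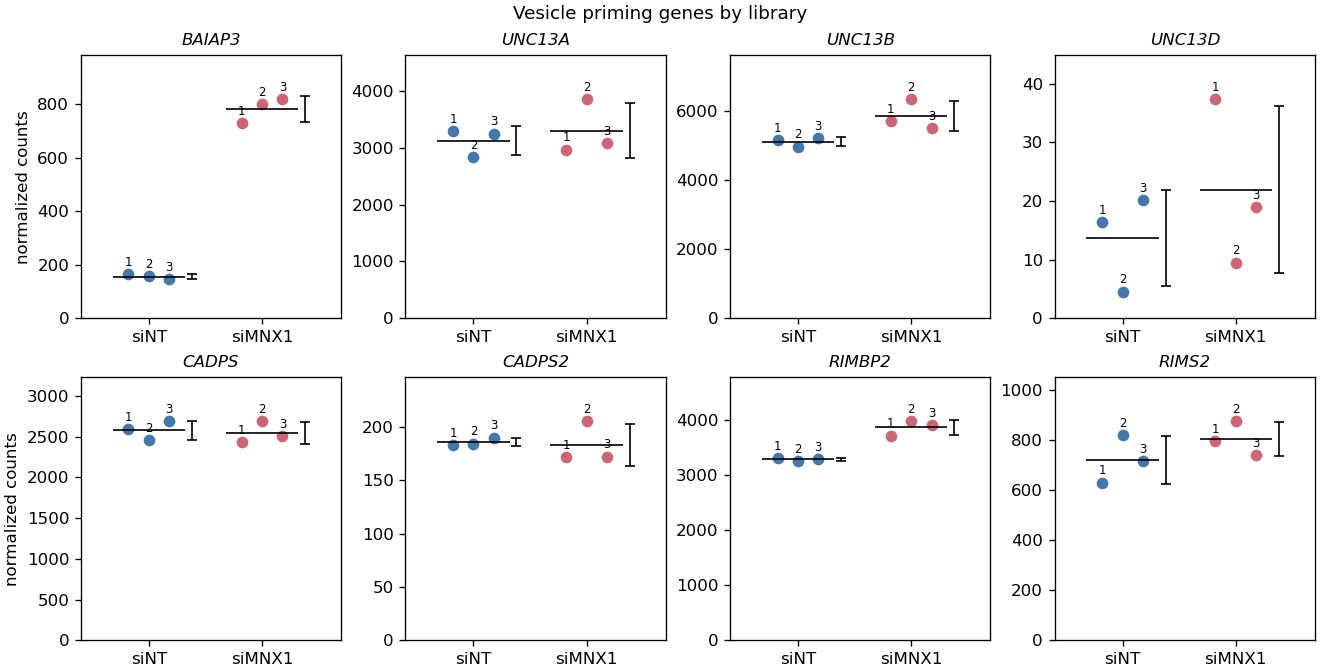
Normalized counts of the 8 genes in each library, 1 panel per gene with its own axis from 0. Points are libraries, numbered by replicate, lines are group means and bars are SD (n = 3). BAIAP3 sits between 145 and 165 in siNT and between 727 and 819 in siMNX1, while siMNX1 replicate 2 is the top point in 6 of the other 7 panels.

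The sequences before the 3 BAIAP3 transcript starts in RefSeq (GRCh38.p14, chromosome 16, plus strand) are shown because BAIAP3 differed most, with the sequences before the first starts of UNC13A (chromosome 19, minus strand) and UNC13B (chromosome 9, plus strand), which belong to the same family, for comparison. RefSeq windows of 250 bases before to 50 bases after a start were found for 5 of the 8 members, 11 windows in all. Each stretch runs 5′ to 3′ up to its start site or up to the first annotated exonic base. Capitals mark a match to the X-box, the element bound by RFX transcription factors, searched on both strands as GTTGCC followed after 2 bases by its own reverse complement.
BAIAP3 start 1, chr16:1333395-1333600: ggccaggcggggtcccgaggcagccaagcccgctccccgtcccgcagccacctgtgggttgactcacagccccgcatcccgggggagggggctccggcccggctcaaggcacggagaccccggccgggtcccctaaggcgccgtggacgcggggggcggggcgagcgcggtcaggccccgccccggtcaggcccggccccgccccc
BAIAP3 start 2, chr16:1334254-1334503: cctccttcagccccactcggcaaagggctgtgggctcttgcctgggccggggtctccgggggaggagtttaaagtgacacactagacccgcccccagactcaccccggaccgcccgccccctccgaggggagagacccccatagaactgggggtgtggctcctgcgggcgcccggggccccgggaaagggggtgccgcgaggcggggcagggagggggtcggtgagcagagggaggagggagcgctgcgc
BAIAP3 start 3, chr16:1335947-1336196: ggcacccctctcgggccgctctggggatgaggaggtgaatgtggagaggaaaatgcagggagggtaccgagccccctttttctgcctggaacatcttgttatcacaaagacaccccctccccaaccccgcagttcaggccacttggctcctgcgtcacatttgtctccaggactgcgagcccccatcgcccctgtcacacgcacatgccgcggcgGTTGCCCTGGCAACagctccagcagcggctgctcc
UNC13A start 1, chr19:17688366-17688604: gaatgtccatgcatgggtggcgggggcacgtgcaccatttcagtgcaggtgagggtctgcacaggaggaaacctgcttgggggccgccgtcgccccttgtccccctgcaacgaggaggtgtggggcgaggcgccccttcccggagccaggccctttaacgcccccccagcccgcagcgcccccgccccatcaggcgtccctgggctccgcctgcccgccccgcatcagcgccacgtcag
UNC13B start 1, chr9:35161759-35161991: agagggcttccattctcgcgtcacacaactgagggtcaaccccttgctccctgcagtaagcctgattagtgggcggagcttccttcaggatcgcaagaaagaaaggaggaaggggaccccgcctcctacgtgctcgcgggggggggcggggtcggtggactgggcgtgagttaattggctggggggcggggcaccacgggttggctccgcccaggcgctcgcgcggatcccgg

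The X-box search and its exact form were chosen after these sequences had been read. One match was found among the 11 windows, beginning 35 bases before the third BAIAP3 start, outside annotated exons. Over all RefSeq promoter windows of this length, 32 of 35116 (0.0911%) held such a match. Because the form was set with the matching window in view, this share cannot measure how unusual the match is. Nothing about RFX binding is read from it. Looser forms of the X-box and other spacings were not searched. The homeobox site TAATTA, which reads the same on both strands, was in 0 of the 11 windows and in 4.84% of all windows. The shorter core TAAT was not searched. The first BAIAP3 window had a GC content of 79.7%, the second 72.7% and the third 63.7%, against a median of 58.7% over all windows. The deposited values are given per gene, so they do not show from which start the BAIAP3 RNA came.

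UNC13B, which opens syntaxin during priming, differed little between the groups. It was at 5149, 4955 and 5197 normalized counts in siNT, against 5703, 6339 and 5487 in siMNX1. The groups did not overlap, with a log2 fold change of 0.19 (0.06 to 0.32), and UNC13B was not past the limma threshold. UNC13A, the main neuronal form, showed no such separation. Its siNT libraries had 3290, 2838 and 3250 and its siMNX1 libraries 2965, 3860 and 3084 normalized counts. Apart from siMNX1 replicate 2 at 3860, the siMNX1 libraries lay within the siNT range, and the log2 fold change of 0.07 had an interval from -0.15 to 0.29. UNC13D, best known for granule release in cytotoxic lymphocytes and platelets, was close to the floor of the table. It had 16.4, 4.57 and 20.2 in siNT and 37.4, 9.47 and 19.0 in siMNX1. Its libraries differed 4.42-fold within siNT and 3.95-fold within siMNX1, and the interval of its log2 fold change ran from -0.68 to 1.99, so a difference of a size like that of UNC13B was not detectable for it. UNC13B lies on chromosome 9 (35161992 to 35405338), UNC13A on chromosome 19 (17601328 to 17688365) and UNC13D on chromosome 17 (75827225 to 75844717).

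Both CADPS genes overlapped between the groups. CADPS, on chromosome 3 (62398346 to 62875389), primes dense-core vesicles in neuroendocrine cells. It was at 2588, 2452 and 2686 normalized counts in siNT, against 2430, 2692 and 2502 in siMNX1. The highest and the lowest of these 6 values were both in siMNX1, and the interval of the log2 fold change ran from -0.15 to 0.11. CADPS2, its paralog on chromosome 7 (122318425 to 122886759), had 182, 184 and 190 in siNT and 171, 206 and 172 in siMNX1. Here too the siMNX1 libraries lay on both sides of the siNT libraries, and the interval ran from -0.28 to 0.24.

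RIMBP2, which links RIM to calcium channels, was higher in every siMNX1 library. It was at 3311, 3255 and 3293 normalized counts in siNT, against 3714, 3982 and 3903 in siMNX1. The siNT libraries lay within 1.02-fold of each other and the siMNX1 libraries within 1.07-fold, and the log2 fold change was 0.23 (0.13 to 0.34). RIMBP2 spans 130396137 to 130716281 of chromosome 12 on the minus strand. The unnamed transcript ENSG00000279905 overlaps it by 5658 bases on the other strand and had 65.9 ± 13.4 in siNT and 94.4 ± 6.37 in siMNX1, a level far below that of RIMBP2.

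RIMS2, a RIM protein that binds RAB3 and UNC13 at release sites, lies on chromosome 8. It was at 630, 820 and 716 normalized counts in siNT, against 796, 878 and 741 in siMNX1. The groups overlapped, because siNT replicate 2 exceeded siMNX1 replicates 1 and 3, and the interval of its log2 fold change of 0.16 ran from -0.07 to 0.39.

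Of the 8 genes, 3 (BAIAP3, UNC13B and RIMBP2) were above without overlap, where 12.0% of all genes were, and 0 were below, where 12.1% of all genes were. Limma called 2 of the 8 higher (BAIAP3 and RIMBP2), against 1.99% of all genes, and 0 lower, against 1.33%. Since the contrast was known when the genes were picked, nothing is read from these counts. With 1 library left out, RIMBP2 was past the threshold in 1 of 6 fits, that without siMNX1 replicate 1. The median log2 fold change was 0.18 for the 8 genes and -0.00045 for all genes. Apart from BAIAP3 and UNC13D, the largest fold change among the members was 0.23.

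**Figure D2:**
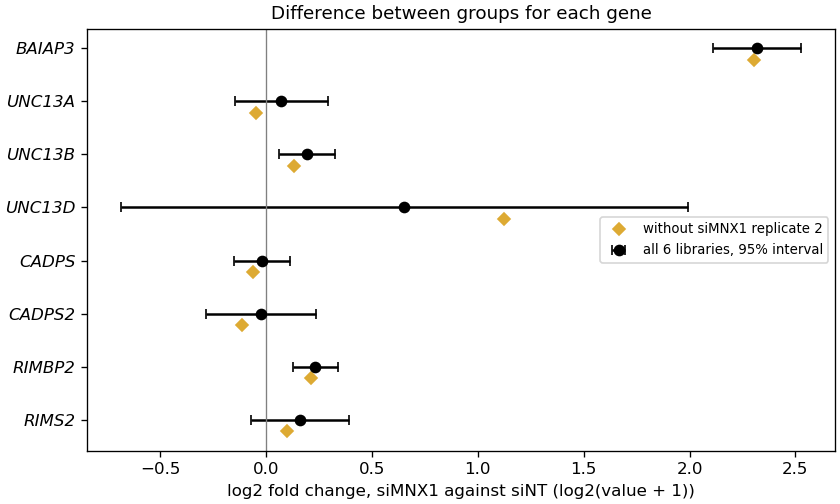
Log2 fold change of siMNX1 against siNT for each of the 8 genes. Black points and bars are the estimate with all 6 libraries and its 95% interval, and diamonds are the estimate without siMNX1 replicate 2. BAIAP3 is at 2.32, and without that library UNC13A moves from 0.07 to -0.04 and UNC13B from 0.19 to 0.13.

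One library stood high for many of these genes. In siMNX1 replicate 2, UNC13A, UNC13B, CADPS, CADPS2, RIMBP2 and RIMS2 had their highest value of the 6 libraries, 6 of 8 members, while UNC13D had its lowest siMNX1 value there. Over all 16593 genes with a known exon length, this library held the highest value for 20.7%, and the other 5 libraries for 14.8% to 17.0% each. The share followed exon length: it was 14.4% in the 5532 genes with the shortest merged exons, 15.9% in the next 5530 and 31.9% in the 5531 longest (5.99 kb or more), to which all 8 members belong with 6.15 to 17.9 kb. Among those longest genes, 14.7% of genes were above without overlap and 2.89% were called higher by limma. The part of length in the members' values was not tested. Without siMNX1 replicate 2 the log2 fold changes were 2.30 for BAIAP3, 0.21 for RIMBP2, 0.13 for UNC13B, 0.10 for RIMS2, -0.04 for UNC13A, -0.06 for CADPS, -0.11 for CADPS2 and 1.12 for UNC13D. For UNC13D, at 0.65 with all libraries, other single libraries weighed as much: its value was 0.06 without siNT replicate 2, 0.18 without siMNX1 replicate 1 and 1.02 without siNT replicate 3. RIMS2, at 0.16 with all libraries, was at 0.07 without siNT replicate 1 and at 0.26 without siNT replicate 2.

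Levels of different genes were compared per kb of merged GENCODE 29 exons, a length that counts exons of all annotated transcripts and so can understate the level of a gene with many of them. In siNT the order ran from RIMBP2 (340 ± 2.93 normalized counts per kb, SD, n = 3) through UNC13B (285 ± 7.15), UNC13A (279 ± 22.4), CADPS (176 ± 8.02), RIMS2 (53.0 ± 6.99), CADPS2 (29.2 ± 0.595) and BAIAP3 (25.3 ± 1.60) to UNC13D (1.77 ± 1.05). The ranges of UNC13B and UNC13A overlapped, and no other neighbours in this order did. In siMNX1 BAIAP3 stood at 127 ± 7.85 per kb, between CADPS (174 ± 9.25) and RIMS2 (59.1 ± 5.04), and the other 7 genes kept their order. This took BAIAP3 from above 25.9% of all genes with a length in siNT to above 59.7% in siMNX1. Of the summed per-kb level of BAIAP3, UNC13A, UNC13B and UNC13D, BAIAP3 made up 4.39%, 4.60% and 3.90% in siNT, against 16.7%, 15.7% and 18.6% in siMNX1. The RNA comes from whole cultures, in which a change in the number of cells that express a gene and a change in RNA per cell cannot be told apart.

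**Figure D3:**
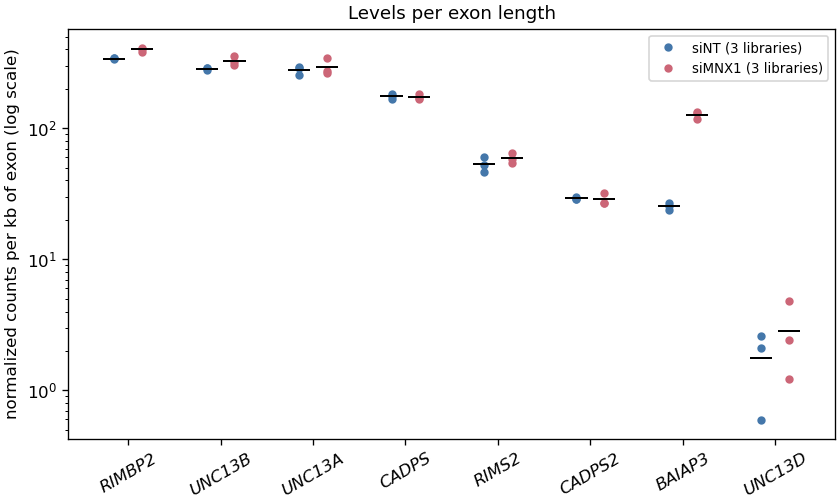
Normalized counts per kb of merged exon on a log axis, for the 3 siNT and 3 siMNX1 libraries of each gene, in the order of the siNT means. Lines are group means. BAIAP3 moves from a mean of 25.3 to 127 while RIMBP2, UNC13B, UNC13A and CADPS remain the 4 highest.

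Markers of other islet cells were read beside BAIAP3, and those named here were picked after their values were seen. Of 8 delta cell markers 6 were measured, and limma called 3 higher (SST, HHEX and CASR) and 2 lower (RBP4 and FFAR4), where 1.99% of all genes were called higher and 1.33% lower. The summed level of the 6 was mostly CASR, a calcium-sensing receptor gene with 6112 ± 87.1 in siNT and 8607 ± 656 in siMNX1. This sum ran from 8050 to 8300 in siNT and from 10487 to 11780 in siMNX1, and none of the 6 measured was at 0 in any library. Of 8 alpha cell markers 5 were measured, with 0 higher and 1 lower (GC), and summed levels of 19659 to 21027 in siNT and 17386 to 18846 in siMNX1. Of 14 neuronal markers, a group that shares much of the release machinery, 10 were measured, with 1 higher (STMN2) and 1 lower (TUBB3) and summed levels of 20844 to 21000 and of 20496 to 20835. The part of these cell type markers in the BAIAP3 difference was not tested.

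Genes that act with the priming proteins were then read from 4 lists, which were chosen with earlier results of these data known. Of 97 listed genes 87 were measured, and limma called 0 of them in either direction (13 higher and 8 lower at an unadjusted p under 0.05). Of all genes, 1.99% were called higher and 1.33% lower. Their median log2 fold change was 0.03, and 11 were above and 11 below without overlap, shares near the 12.0% and 12.1% of all genes. The share of all genes with an unadjusted p under 0.05 was not computed. Unadjusted counts are therefore not read as a tilt of any set of genes. The closest relatives of the members were few in the table. TSPOAP1, another RIM-binding protein gene, had 279 ± 16.3 in siNT and 276 ± 40.3 in siMNX1. RIMS3, which encodes a short RIM form, had 52.5 ± 1.41 and 33.2 ± 8.29 (log2 fold change -0.67, limma, adjusted p = 0.152). RIMBP3 was the last of the 3 measured, named after its values were seen, with 11.8 ± 2.82 and 16.0 ± 4.79. UNC13C, RIMS1 and RIMS4 were looked up by symbol and not found among the 16792 genes, so their levels are unknown.

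Of 25 measured active zone, RAB3 and RAB27 genes, 6 were higher and 2 lower at an unadjusted p under 0.05. With no share of all genes to set beside them, these counts are not read as a tilt. RAB3B, a vesicle GTPase that RIM binds, had 5614 ± 318 in siNT and 7171 ± 1369 in siMNX1 (log2 fold change 0.34, limma, adjusted p = 0.139). Its siMNX1 libraries had 6345, 8751 and 6416. RAB3D had 3664 ± 90.4 and 3298 ± 151 (log2 fold change -0.15, limma, adjusted p = 0.15). Without siMNX1 replicate 2 the log2 fold changes were 0.19 for RAB3B and -0.19 for RAB3D. PCLO, which encodes the active zone scaffold piccolo and was named after its values were seen, lay next to the threshold. It was at 1887, 1906 and 1604 in siNT, against 2338, 3377 and 2365 in siMNX1. Every siMNX1 library was above every siNT library, with siMNX1 replicate 2 far above the others (log2 fold change 0.56, limma, adjusted p = 0.0522). Over the alternatives its adjusted p ran from 0.0361 to 0.181, and it was under the threshold in 6 of 13, among them the fit without siMNX1 replicate 2 (log2 fold change 0.39, limma, adjusted p = 0.0377).

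Of 27 measured SNARE genes and their regulators, 2 were higher and 4 lower at an unadjusted p under 0.05, again without a share of all genes beside them. The median log2 fold change was -0.03. STX3 and STX1A, the most abundant plasma membrane syntaxins here, had 4597 ± 93.7 and 4098 ± 254 in siNT and 4864 ± 349 and 4189 ± 336 in siMNX1. Their log2 fold changes were 0.08 and 0.03 (limma, adjusted p = 0.504 and adjusted p = 0.856). Named after their values were seen, the SNARE inhibitor STXBP5 was at 1068 ± 23.3 and 1376 ± 185 (log2 fold change 0.36, limma, adjusted p = 0.0746), while the SNARE clamp CPLX1 was at 616 ± 50.4 and 477 ± 58.1 (log2 fold change -0.37, limma, adjusted p = 0.0914). STXBP5 was called higher without siMNX1 replicate 3 (limma, adjusted p = 0.00858, within a range up to 0.199 over its alternatives). STXBP6, also named after its values were seen, went the other way, with 70.9 ± 25.2 in siNT and 34.6 ± 5.89 in siMNX1 (log2 fold change -0.96). It was called lower without siNT replicate 1 (log2 fold change -1.27, limma, adjusted p = 0.0425, range to 0.321).

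The last list held 32 measured genes of endosome to Golgi traffic and dense-core vesicle formation, the steps where BAIAP3 is placed. At an unadjusted p under 0.05, 5 were higher and 1 lower, and the share of all genes was not computed. The log2 fold change was above 0 for 22 and below 0 for 10. Its median was 0.05, where the median was -0.00045 for all genes. For the genes with the longest merged exons (5.99 kb or more) the median was 0.03. The part of exon length in this list was not tested, and these counts are not read as a tilt. STX16, a Golgi SNARE for traffic from endosomes, had 7134 ± 220 in siNT and 7635 ± 341 in siMNX1, and the sorting receptor gene SORT1 had 4141 ± 133 and 4015 ± 276. Neither was called (limma, adjusted p = 0.324 and adjusted p = 0.719). STX6, the SNARE partner of STX16, named after its values were seen, had 980, 974 and 983 in siNT and 810, 887 and 820 in siMNX1. Its groups did not overlap (log2 fold change -0.22, limma, adjusted p = 0.0936). GOLGA1, which encodes a Golgi tethering protein and was likewise named afterwards, had a log2 fold change of 0.37 with all libraries and 0.26 without siMNX1 replicate 2. It was called higher without siMNX1 replicate 1 (log2 fold change 0.54, limma, adjusted p = 0.0245, range to 0.36 over its alternatives).

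**Figure D4:**
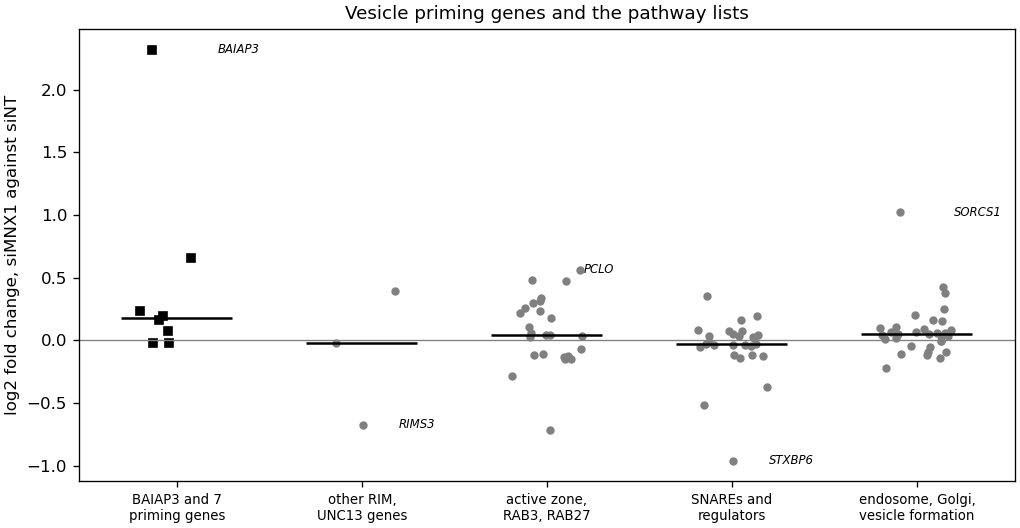
Log2 fold change of siMNX1 against siNT for the 8 genes (black squares) and for the measured genes of the 4 pathway lists (grey points), with each set's median as a line. BAIAP3 at 2.32 lies above all 87 list genes, whose highest value is that of SORCS1 (1.02), a gene with few normalized counts (8.85 in siNT and 19.5 in siMNX1).

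The genes around BAIAP3 were read for both sides. Of 17 measured genes within 250 kb, limma called 3 higher and 0 lower, against 1.99% of all genes called higher and 1.33% lower. An unadjusted p under 0.05 was found for 4, these 3 and TELO2, named after its values were seen. TELO2 was lower, with 813 ± 16.0 in siNT and 658 ± 76.2 in siMNX1 (log2 fold change -0.31, limma, adjusted p = 0.0897). The 3 called genes lie 81.6 to 87.7 kb beyond the BAIAP3 end: PERCC1 (log2 fold change 4.24), CCDC154 (3.86) and ENSG00000279930 (4.32). ENSG00000279930 lies within the span of CCDC154 on the other strand. Whether their exons overlap was not checked, so it is open whether reads of this pair can be told apart. Of the 5 measured genes before BAIAP3, 0 were called and 0 had an unadjusted p under 0.05, with log2 fold changes of -0.30 to -0.01. On the other side GNPTG, which encodes a subunit of a lysosomal enzyme tagging complex, starts 2.48 kb after BAIAP3 and had 1121 ± 69.6 in siNT and 1216 ± 136 in siMNX1 (log2 fold change 0.11, limma, adjusted p = 0.541).

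**Figure D5:**
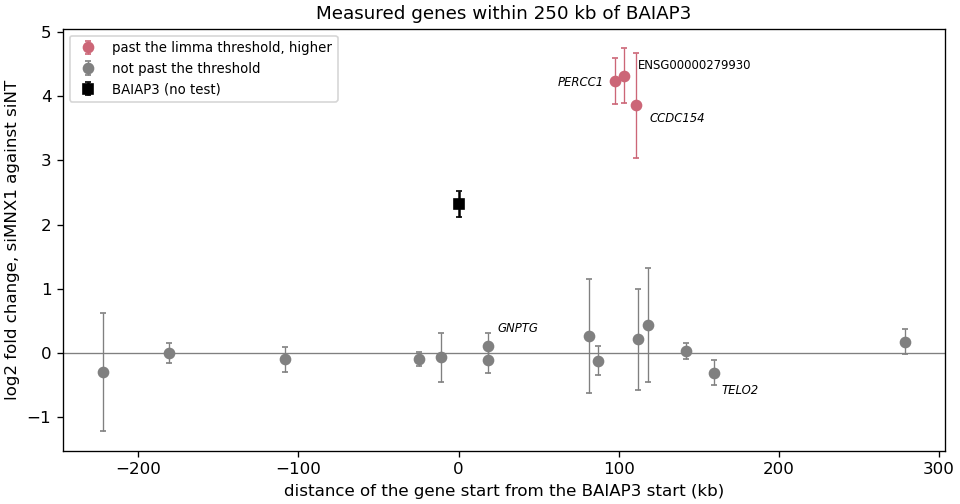
Log2 fold change with 95% interval of the 17 measured genes within 250 kb of BAIAP3, by the distance of each gene's start from the BAIAP3 start in kb. The 3 genes past the threshold lie on one side at 3.86 to 4.32, BAIAP3 (black square) is at 2.32, and the other 14 genes lie between -0.31 and 0.43.

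Profiles over the 6 libraries were compared with that of BAIAP3 by Pearson correlation of log2(value + 1), as a description, for 12670 named genes with a mean of at least 50. The closest were UGT2B7, a glucuronidation enzyme (r = 0.998), REXO2, an oligoribonuclease (0.998), the islet transcription factor RFX6 (0.998), the antiproliferative gene BTG1 (0.998) and FAM8A1, a part of the machinery of protein degradation at the endoplasmic reticulum (0.997). All 5 separate the same 2 groups, and 231 genes had an r of at least 0.95. The size of the difference varied: the log2 fold change was 1.22 for UGT2B7, 0.71 for RFX6, 0.68 for BTG1, 0.42 for FAM8A1 and 0.25 for REXO2. Limma called the first 4 (largest adjusted p = 0.004) and not REXO2 (adjusted p = 0.0702). RFX6 was at 2800, 2780 and 2771 normalized counts in siNT, against 4575, 4480 and 4641 in siMNX1.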

How the data were processed

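Poly(A) RNA is named as the molecule in the labels, while the protocol describes libraries from 5 ng of total RNA (Ovation Solo kit) with ribosomal RNA removed. One deposited table held the authors' normalized counts (a signal with decimals, at least 0, for each gene). Tools in the submitters' processing notes, without roles, are DESeq2 1.26.0, DESeq, R 3.6.3, RSEM 1.3.1 and STAR 2.7.6a, with the build GRCh38. For annotation, strand setting and gene filter nothing is given in the sources used here. Reads behind a value are unknown, so no counting interval was computed.

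The authors' values were analysed on a log2 scale, log2(value + 1), with limma 3.58.1 (R 4.3.3), a linear model of group over 16792 genes, a variance trend and Benjamini-Hochberg adjustment. A minimum mean of 5 removed 0 genes. The fit was tested on simulated data. Groups came from the sample titles. Positions and merged exon lengths came from GENCODE 29 (GRCh38) and promoter windows from RefSeq (GRCh38.p14). No 2 libraries shared a value above 0. Python 3.11.15, numpy 2.4.6, pandas 2.3.3 and matplotlib 3.10.9 were used.

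The members and lists were chosen with earlier results of these data known. Named genes were the members, MNX1, PERCC1 and SST, in each of 4 lists up to 4 called genes or else the 2 most abundant, called genes within 250 kb of BAIAP3 and the nearest on each side, the 5 profiles most like BAIAP3 and the 3 most abundant beta cell markers; 2 of these genes are not reported here. Alternatives were pseudocounts of 0.5 and 5, a minimum mean of 50, equal totals, equal upper quartiles, a robust variance model, a replicate block and each library left out.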

Additional observations from a re-analysis of the deposited data

How the results depend on the processing

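Over 13 alternatives BAIAP3 ranged from 2.27 to 2.37 on the log2 scale, RIMBP2 from 0.21 to 0.26, UNC13B from 0.13 to 0.24, RIMS2 from 0.07 to 0.26 and UNC13D, in 12 of them, from 0.06 to 1.12. The values for UNC13A (-0.04 to 0.15), CADPS (-0.06 to 0.01) and CADPS2 (-0.11 to 0.02) lay on both sides of 0. Over all genes 558 were called, 335 higher and 223 lower. With each library left out in turn the total ran from 197 to 436, with 133 to 257 higher and 64 to 179 lower. With a replicate block it was 237 (162 higher and 75 lower), and RIMBP2 was then not called. The deviations of same-numbered libraries from their group means correlated at -0.01, -0.01 and -0.04, so no pairing by replicate number was seen. With 3 libraries in each group, these values cannot exclude a shared culture or day. In 0 of 3 cases was a siNT library closest to its own number. For the active zone, RAB3 and RAB27 list the count of 0 became 1 (PCLO) with a pseudocount of 5, a minimum mean of 50, equal totals, equal upper quartiles or the replicate block, and ran from 0 to 1 over the left-out libraries. For the SNARE list it ran from 0 to 1, and for the endosome to Golgi list from 0 to 1. Other causes of these shifts were not tested. Fits with a library left out have fewer samples. The lack of read depth limits low genes most, of which UNC13D is the only member. The alternative with a minimum mean of 50 left UNC13D out, so it has no fold change there.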
